A study of Mus musculus with 4 samples.

Results

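Ppp1r1b, Drd2, Adora2a, Rgs9, Pde10a, Pde1b and Gpr6, a set of genes that mark medium spiny neurons of the striatum, were followed in mouse hypothalamus after an acute salt load. They were found by the gene name of each array probe, in any letter case, and made up 7 of the 18138 gene names and 9 of the 25697 probes. Of these, 6 probes of 5 genes (Drd2, Rgs9, Pde10a, Pde1b and, with 2 probes, Ppp1r1b) passed the filter on dim signals and were among the 14199 probes tested. All animals were C57Bl/6J mice killed at 12 weeks of age, at approximately circadian time 6. Salt mice had been injected with 325 uL of 2 M NaCl and control mice with vehicle (PBS). In both groups water was then withheld, and the hypothalamus was taken 2 h after the injection. RNA was measured in 2 fractions of each sample. The IP fraction is RNA immunoprecipitated with ribosomes whose protein S6 was phosphorylated at residues 244 and 247 (pS6), and the input fraction is RNA that had not been immunoprecipitated. The 2 salt and 2 control samples thus gave 8 Illumina BeadArrays. Whether an array pair stands for 1 animal or for pooled animals is not stated in the labels. The p-values therefore reflect only how far these samples scatter, which may be technical.

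S6 belongs to the small ribosomal subunit and is phosphorylated in active neurons, so ribosomes of such cells are among those that the antibody recovers. Medium spiny neurons are the GABAergic projection neurons of the striatum, where dopamine and adenosine receptors act on cAMP. Gs-coupled receptors such as Adora2a raise cAMP, Gi-coupled receptors such as Drd2 lower it, phosphodiesterases break it down, and the Ppp1r1b product DARPP-32, once phosphorylated by protein kinase A, inhibits protein phosphatase 1. None of these genes is restricted to the striatum, and in a bulk sample fewer cells of a type and less RNA per cell cannot be told apart.

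Detected probes (detection p under 0.01) numbered 13058 to 13808 per IP array and 12259 to 12705 per input array, and the median intensity of an array lay between 143.3 and 161.9. Probes without a signal (detection p of at least 0.05) had median intensities of 96.2 to 108.2 per array, so the deposited intensities include background. The number of arrays limits the precision of every value below. A level here is the background-corrected, quantile-normalized log2 intensity of 1 probe, and levels were compared between arrays and never between probes. The IP/input ratio is the log2 IP level minus the log2 input level of the same sample.

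Of the receptor genes that mark striatopallidal neurons, 2 of 3 gave no signal. Adora2a, the Gs-coupled adenosine receptor of these cells, had 1 probe with intensities of 93.0 to 110.9 and a lowest detection p of 0.30451 over the 8 arrays. Gpr6, a constitutively active Gs-coupled receptor of the same cells, had 1 probe with intensities of 79.3 to 117.5 and a lowest detection p of 0.18421. Neither was detected on any array, so no change of either could be read in any fraction. The third undetected probe was 1 of the 3 for Ppp1r1b (ILMN_1253473), at 102.1 to 118.3 with a lowest detection p of 0.08647. The 6 probes that were tested were detected on all 8 arrays. The set is therefore described below as these genes in hypothalamus and not as a measure of medium spiny neurons.

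Ppp1r1b gave the only member values at which both salt IP arrays lay below both control IP arrays. In the IP fraction its probe ILMN_2954824 had intensities of 161.1 and 158.7 in the salt samples, against 262.2 and 211.6 in the control samples. In the input the same probe had 300.4 and 212.3 in the salt samples, against 357.9 and 307.7 in the control samples. The salt arrays were lower in both fractions, without overlap between the groups. On the normalized scale such a separation, in either direction, was seen for 30.8% of all tested probes in the IP and 25% in the input.

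On the normalized scale the IP level of ILMN_2954824 averaged 6.11 ± 0.08 in salt and 7.12 ± 0.13 in control samples (SD, n = 2 each), a log2 difference of -1.01 ± 0.22 (SE), or 2.01-fold lower. The 95% confidence interval of the limma fit ran from -1.51 to -0.50, the unadjusted p was 0.00138, and after Benjamini-Hochberg adjustment over all tested probes the limma p was 0.375, so the difference did not pass. Its input level averaged 7.45 ± 0.50 in salt and 7.98 ± 0.03 in control samples, a difference of -0.53 ± 0.22 (SE; interval -1.04 to -0.03; limma adjusted p = 1.00), and leaving out salt replicate 1 or 2 moved it to -0.88 or -0.18. The salt IP signals of this probe were dim, with detection p of 0.00125 and 0.00877 where the cutoff was 0.01. The size of the fold therefore depends on the background correction, and without it the IP difference was -0.54.

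The second tested Ppp1r1b probe, ILMN_2651660, had IP intensities of 158.5 and 164.1 in the salt samples, against 230.1 and 187.2 in the control samples. Its input intensities were 167.3 and 189.8 in the salt samples, against 200.9 and 164.7 in the control samples. The groups were apart in the IP and overlapped in the input. Its IP level averaged 6.14 ± 0.03 in salt and 6.85 ± 0.15 in control samples (SD, n = 2 each), a difference of -0.70 ± 0.18 (SE; interval -1.11 to -0.30; unadjusted limma p of 0.00338; adjusted p = 0.462), and without background correction the difference was -0.36. Its input level differed by -0.00 ± 0.18 (SE; interval -0.41 to 0.40). The salt IP signals of ILMN_2651660 were dim as well, with detection p of 0.00125 and 0.00376. Neither probe passed in the comparison of salt with control under any setting tried.

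The Ppp1r1b probes disagreed in their IP/input ratios. ILMN_2954824 was below the input in every sample, with log2 ratios of -1.63 and -1.04 in the salt samples and -0.78 and -0.93 in the control samples. ILMN_2651660 was at -0.33 and -0.63 in the salt samples, against 0.21 and 0.23 in the control samples, on either side of 0. The salt minus control difference in the ratio was -0.48 ± 0.26 (SE; interval -1.09 to 0.13; limma adjusted p = 1.00) for ILMN_2954824 and -0.70 ± 0.23 (SE; interval -1.23 to -0.17; unadjusted limma p of 0.0154; adjusted p = 1.00) for ILMN_2651660. For ILMN_2954824 it was -0.18 without salt replicate 1, -0.77 without salt replicate 2 and -0.16 from the deposited ratios, and for ILMN_2651660 it was -0.33 from the deposited ratios. Which transcripts the probes read was not analysed here, and their levels over the 8 arrays correlated at r = 0.56.

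Against 0, that is for IP against input, ILMN_2954824 passed in salt samples (-1.33 ± 0.19, SE, limma adjusted p = 0.00273), in control samples (-0.86 ± 0.19, adjusted p = 0.00988) and over all 4 samples (-1.09 ± 0.13, 2.13-fold lower in the IP, adjusted p = 0.000434). The call in control samples was lost without control replicate 1 (-0.93, limma adjusted p = 0.0802) and without control replicate 2 (-0.78, adjusted p = 0.146). ILMN_2651660 passed in salt samples only narrowly (-0.48 ± 0.16, SE, limma adjusted p = 0.0494), and 10 of 13 alternatives ended that call, among them the deposited ratios, at -0.14. In control samples it was at 0.22 ± 0.16 (limma adjusted p = 0.297) and over all samples at -0.13 ± 0.11 (limma adjusted p = 0.362). The share of all tested probes that passed in the lower direction was 18.1% in salt samples, 20.1% in control samples and 28.8% over all samples.

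**Figure D1:**
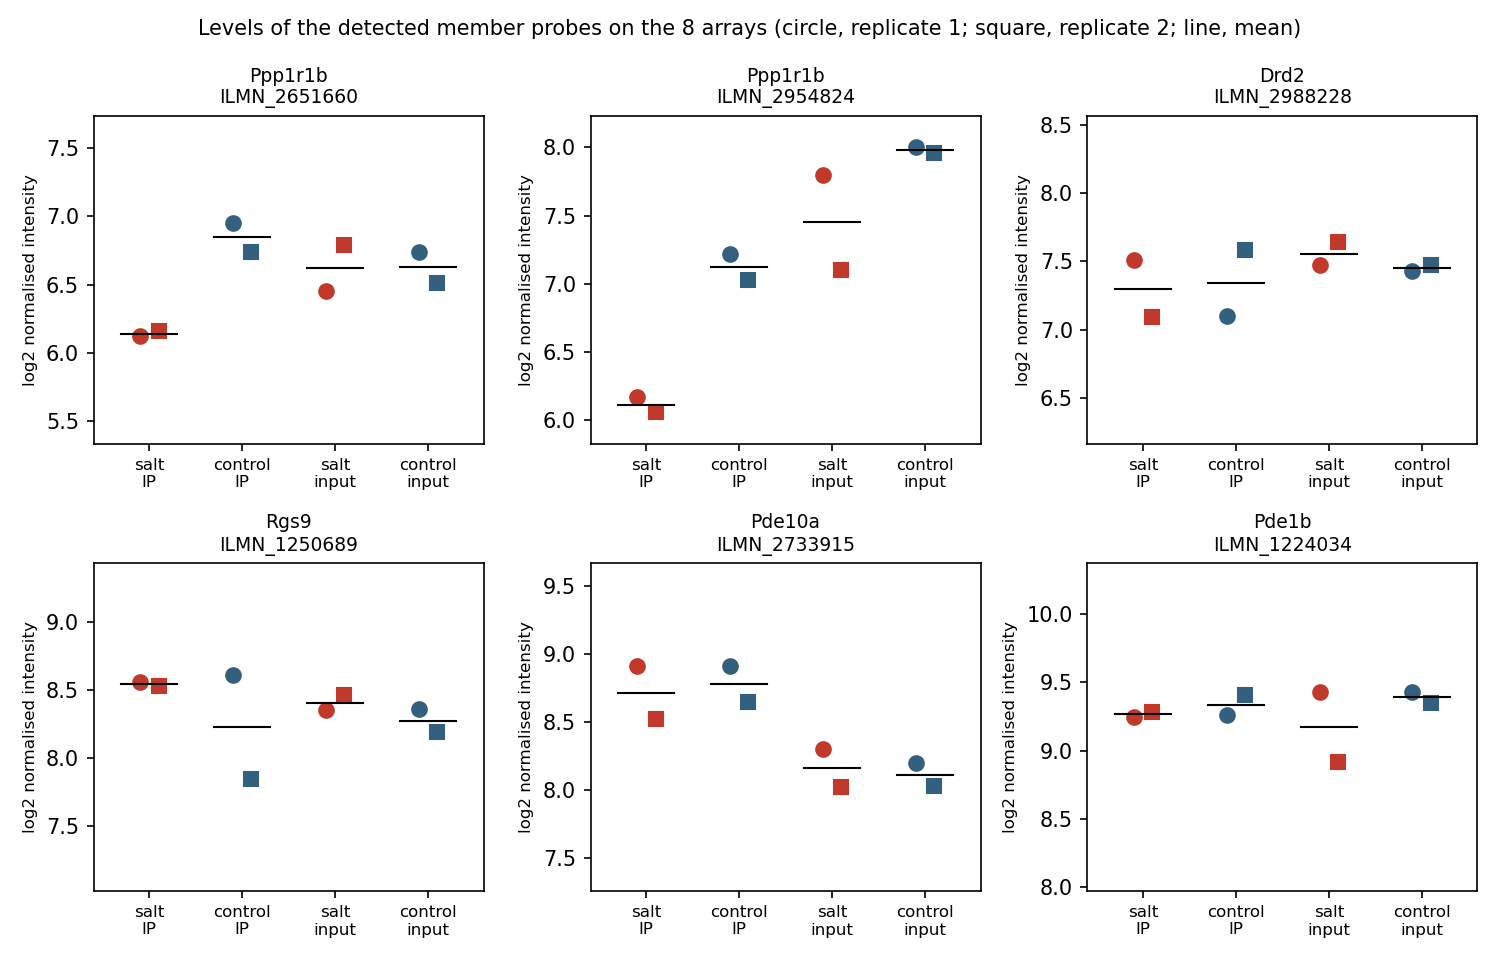
Normalized log2 levels of the 6 tested member probes in the IP and the input, 1 panel per probe, with salt samples (red) left of control samples (blue). Circles are replicate 1, squares replicate 2 and lines group means. Only in the 2 Ppp1r1b panels do both salt IP arrays lie below both control IP arrays. Of all tested probes, 30.8% did not overlap between the groups in the IP, in either direction.

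Drd2, the Gi-coupled dopamine receptor, was the only receptor of the set with a signal. Its probe had IP intensities of 283.9 and 228.7 in the salt samples, against 247.5 and 270.1 in the control samples, and input intensities of 253.3 and 268.7 in the salt samples, against 268.9 and 240.9 in the control samples. The groups overlapped in both fractions. The IP level averaged 7.30 ± 0.30 in salt and 7.34 ± 0.34 in control samples (SD, n = 2 each), a difference of -0.04 ± 0.21 (SE), and the interval of -0.51 to 0.44 leaves room for a change of moderate size either way. The input difference was 0.11 ± 0.21 (SE; interval -0.37 to 0.58). Log2 IP/input ratios were 0.05 and -0.55 in the salt samples, against -0.33 and 0.11 in the control samples, so Drd2 mRNA lay on both sides of its input within each group (over all samples -0.18 ± 0.14, SE, limma adjusted p = 0.303).

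Rgs9 speeds up GTP hydrolysis by Gi/o proteins and thereby shortens signalling through receptors such as Drd2. Its IP intensities were 482.4 and 454.7 in the salt samples, against 519.3 and 306.5 in the control samples, and its input intensities were 408.4 and 412.9 in the salt samples, against 439.9 and 350.7 in the control samples. Control replicate 2 had the lowest Rgs9 signal in both fractions. The IP level averaged 8.55 ± 0.02 in salt and 8.23 ± 0.53 in control samples (SD, n = 2 each), a difference of 0.31 ± 0.23 (SE; interval -0.21 to 0.84), and without control replicate 2 it was -0.06. The input difference was 0.13 ± 0.23 (SE; interval -0.40 to 0.65). IP/input ratios were 0.22 and 0.07 in the salt samples, against 0.25 and -0.33 in the control samples, with an average over all samples of 0.05 ± 0.13 (SE, limma adjusted p = 0.755).

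Pde10a, which hydrolyses both cAMP and cGMP, was the 1 member whose probe rose in the IP relative to the input. Its IP intensities were 589.5 and 450.9 in the salt samples and 619.9 and 457.9 in the control samples, and its input intensities were 397.5 and 324.6 in the salt samples and 399.3 and 319.7 in the control samples. All 4 samples had more signal in the IP, with log2 ratios of 0.60 and 0.50 in the salt samples and 0.72 and 0.61 in the control samples. The ratio averaged 0.55 ± 0.15 in salt samples (SE, 1.46-fold, limma adjusted p = 0.0265), 0.67 ± 0.15 in control samples (1.59-fold, adjusted p = 0.0122) and 0.61 ± 0.11 over all samples (1.52-fold, adjusted p = 0.0023).

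The Pde10a call over all samples held under every alternative tried, with values of 0.49 to 0.70. Within the groups, leaving out control replicate 1 or 2 ended the call in control samples (0.61 and 0.72, limma adjusted p = 0.183 and 0.146), and in salt samples median scaling (0.44, adjusted p = 0.0582), leaving out salt replicate 1 (0.50, adjusted p = 0.0814) or leaving out a control replicate (0.55, adjusted p = 0.0682) ended it. Both salt ratios lay below both control ratios, but by no more than the error: salt minus control was -0.11 ± 0.22 (SE; interval -0.62 to 0.39). The level differed between salt and control by -0.07 ± 0.20 in the IP (interval -0.51 to 0.38) and by 0.05 ± 0.20 in the input (interval -0.40 to 0.49). In the background, 18.8% of all tested probes passed in the higher direction in salt samples, 19.9% in control samples and 27.7% over all samples.

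Pde1b, a phosphodiesterase activated by calcium and calmodulin, did not pass in any comparison. Its IP intensities were 725.6 and 691.6 in the salt samples, against 764.5 and 706.1 in the control samples, and its input intensities were 799.4 and 539.4 in the salt samples, against 840.7 and 684.1 in the control samples. On the normalized scale the groups overlapped in the IP (difference -0.07 ± 0.19, SE, interval -0.50 to 0.36) and in the input (-0.21 ± 0.19, interval -0.64 to 0.22). Ratios were -0.18 and 0.36 in the salt samples, against -0.16 and 0.06 in the control samples, with an average of 0.02 ± 0.13 over all samples (SE, limma adjusted p = 0.906).

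**Figure D2:**
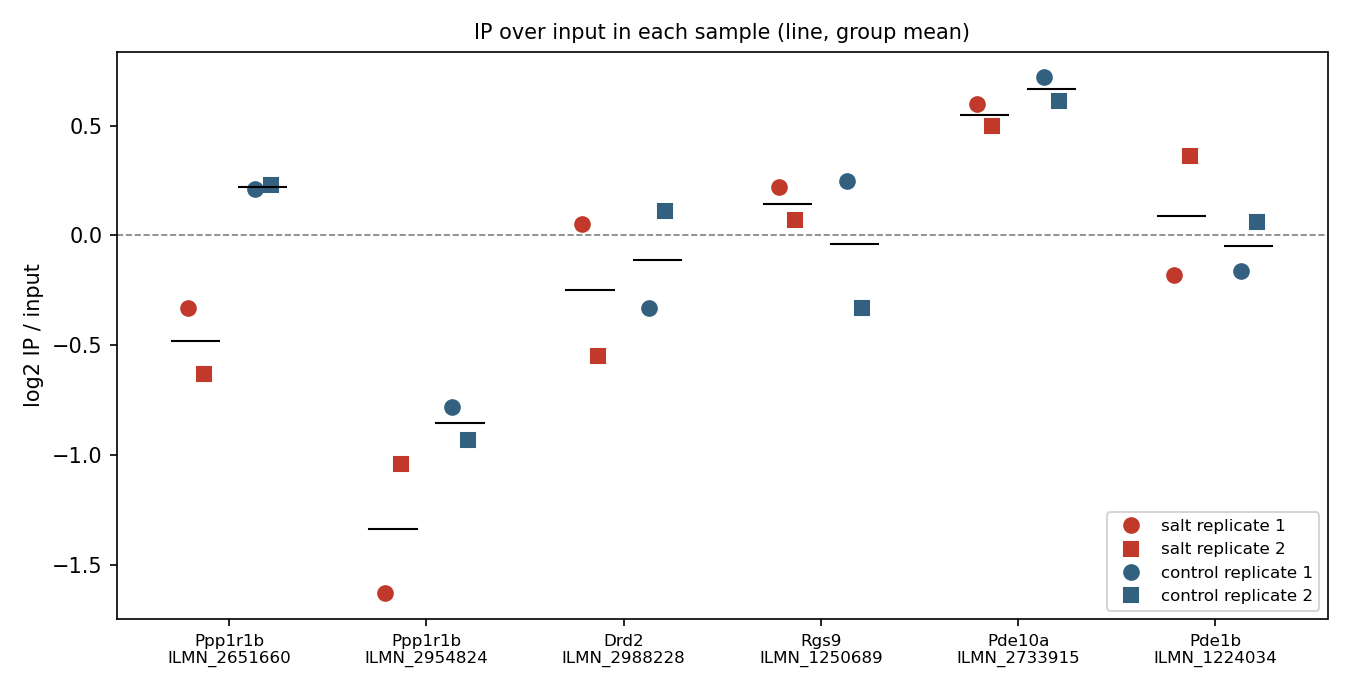
Log2 IP/input ratios of the 6 tested member probes by sample, salt (red) left of control (blue), with circles for replicate 1, squares for replicate 2 and lines for group means. The dashed line at 0 marks equal IP and input levels. Pde10a is above 0 and Ppp1r1b ILMN_2954824 below 0 in all 4 samples, and Ppp1r1b ILMN_2651660 is below 0 in salt and above 0 in control samples.

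Counted together, 0 of the 6 member probes passed between salt and control in the IP, the input or the ratio by limma. Over all tested probes 0.134% passed as higher in the IP of salt samples and 0.0141% as higher in the input, and 0% passed as lower in either fraction or in either direction in the ratio. At an unadjusted limma p under 0.05 the lower side held both Ppp1r1b probes in the IP, where 2.73% of all tested probes were as low, ILMN_2954824 in the input (background 1.23%) and ILMN_2651660 in the ratio (background 1.29%). The groups did not overlap for 2 of the 6 probes in the IP, 1 in the input and 3 in the ratio, against 30.8%, 25% and 26.8% of all tested probes. A log2 IP/input ratio below 0 in both salt and above 0 in both control samples, as for ILMN_2651660, was found for 1.08% of all tested probes. With 2 samples a group an exact two-sided permutation test cannot go below p = 0.333.

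**Figure D3:**
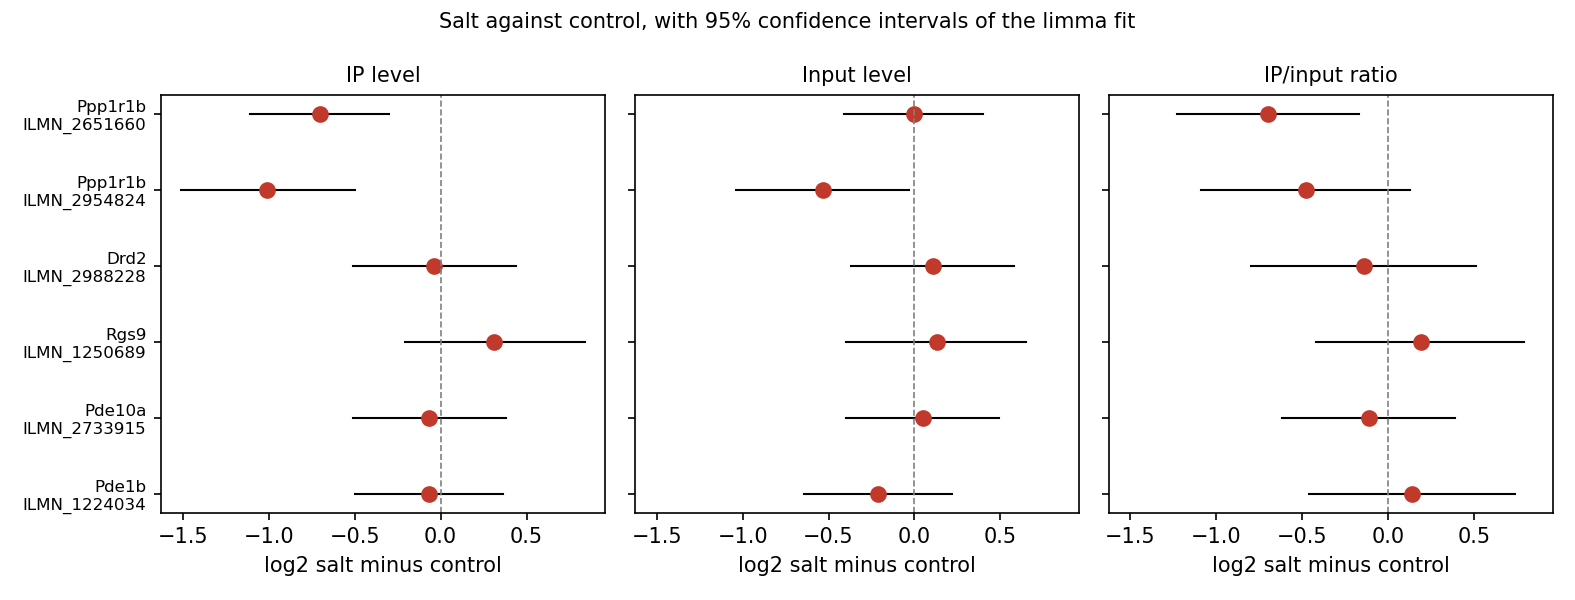
Log2 difference of salt minus control for each tested member probe in the IP level, the input level and the IP/input ratio. Points are limma estimates and bars their 95% confidence intervals. The intervals of both Ppp1r1b probes lie below 0 in the IP, and for Drd2, Rgs9, Pde10a and Pde1b every interval spans 0.

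The members did not move as 1 group over the arrays. Pearson correlations of their log2 levels over the 8 arrays, which share the IP and input difference and the array normalization, ran from -0.59 to 0.56 over the 15 pairs of probes with a median of -0.16. The lowest was between Pde10a and Ppp1r1b ILMN_2954824 and the highest between both Ppp1r1b probes. The mean of the 6 centred member levels was -0.12 and -0.27 in salt IP, 0.14 and 0.00 in control IP, 0.09 and -0.05 in salt input, and 0.15 and 0.05 in control input arrays. Both Ppp1r1b probes entered this mean, with the largest IP differences of the set (-1.01 and -0.70), so it does not stand for all members alike. The genes whose levels followed this mean most closely were Ptges2 (r = 0.946), Etfa (0.94), Nagk (0.939), Xlr4a (0.938) and LOC100045252 (0.931), over 8 arrays that fall into the 4 group and fraction classes. These are the highest values among all other tested genes, and no chance level was set for such a maximum.

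Other genes of striatal projection neurons did not pass between salt and control either. Of 37 such genes 31 were on the array and 25 were tested, 0 passed in any of the comparisons of salt with control, and their medians were -0.10 in the IP, -0.02 in the input and -0.05 in the ratio, against 0.00, 0.00 and 0.01 over all tested probes. The lowest p in the IP belonged to Pdyn, the prodynorphin gene that hypothalamic neurons also use, and to the forebrain transcription factor gene Six3. Pdyn had IP intensities of 1612.9 and 1943.3 in the salt samples, against 1167.3 and 1236.1 in the control samples (0.59 ± 0.21, SE, limma adjusted p = 0.822). Six3 was detected on the 2 control IP arrays and on no other array, so it entered the tests through the group where it was high and its difference is not read as a result. In the ratio the lowest p belonged to Six3 again and to Ebf1, a transcription factor gene of direct-pathway neurons, with 0.81 ± 0.23 (SE, unadjusted limma p of 0.00747; adjusted p = 1.00), a dim probe that no control IP array detected. In the input it belonged to Scn4b (0.38 ± 0.22) and Rasgrp2 (0.36 ± 0.25), which did not pass either.

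Between IP and input the same list was mixed. Over all samples 4 of its 25 tested genes passed as higher in the IP and 9 as lower, where 27.7% and 28.8% of all tested probes did, with a median of -0.27, against -0.03 over all tested probes. Among the higher genes Actn2 was detected on IP arrays only, so it entered the test through the fraction where it was high. Over the 20 genes whose probes all 8 arrays detected, 3 passed as higher and 10 as lower (median -0.31). Of all 11291 probes that all 8 arrays detected, 6717 passed in either direction. Their median was -0.07, with 45.1% above 0. The other higher genes were Arpp21 (0.74 ± 0.11, SE), which encodes a substrate of protein kinase A, Foxp1 (0.60 ± 0.15) and the sodium channel subunit gene Scn4b (0.37 ± 0.11). The lower ones were the tachykinin precursor gene Tac1 (-1.20 ± 0.17), Dlx5 (-0.96 ± 0.11), Isl1 (-0.92 ± 0.14), Hpca (-0.69 ± 0.12), Ngef (-0.67 ± 0.11), Ebf1 (-0.34 ± 0.11), Ptpn5 (-0.34 ± 0.12), the dopamine receptor gene Drd1 (-0.34 ± 0.13) and Gnal (-0.31 ± 0.11), with limma adjusted p of 0.000362 to 0.0493. Dlx5 and Isl1 encode transcription factors that hypothalamic neurons use too. Drd1 and Gnal, the receptor and the Golf protein of the same pathway, were at the edge of the threshold (limma adjusted p = 0.0493 and 0.0481). Of these calls, 9 of 13 alternatives ended that of Drd1, 7 of 13 that of Gnal, 6 of 12 that of Ebf1, 5 of 13 that of Ptpn5 and 3 of 13 that of Scn4b. All 5 were lost without control replicate 1 (-0.47 to -0.26, and 0.37 for Scn4b) and without control replicate 2 (-0.42 to -0.22, and 0.37 for Scn4b). Ptpn5 (-0.30) and Drd1 (-0.28) were also lost without salt replicate 1, and Gnal (-0.24) without salt replicate 2. The Ebf1 call came from the control samples: its levels in salt samples were 5.96 and 6.55 in the IP and 5.90 and 6.48 in the input. With median scaling, which moved the median of all tested probes to -0.15, 3 passed as higher and 12 as lower, with a list median of -0.34. Under that setting 8485 of the 14199 tested probes passed in either direction, and 40.2% were above 0.

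In the pathway below the receptors, 33 of 39 listed genes of dopamine and cAMP signalling were tested. Between salt and control 0 passed, with medians of 0.02 in the IP, -0.02 in the input and 0.03 in the ratio, and the lowest p belonged to Arrb2 (0.55 ± 0.24) and Arpp19 (0.28 ± 0.17) in the IP, to Csnk2a1 (0.51 ± 0.26) and Gpr158 (0.23 ± 0.19) in the input, and to Prkar1b (0.29 ± 0.22) and Prkar2b (-0.30 ± 0.24) in the ratio. For IP against input 2 passed as higher and 11 as lower over all samples (median -0.14), where 27.7% and 28.8% of all tested probes did. The catalytic subunit gene of protein kinase A, Prkaca (-0.68 ± 0.11, SE, limma adjusted p = 0.00138), its regulatory subunit genes Prkar2b (-0.66 ± 0.12) and Prkar1b (-0.33 ± 0.11), and the inhibitory G protein gene Gnai2 (-0.56 ± 0.11) were lower in the IP, with Kcnj6 (-0.50 ± 0.13), Arpp19 (-0.48 ± 0.11), Arrb2 (-0.43 ± 0.12) and Gnal. The phosphatase subunit genes Ppp2ca (-0.47 ± 0.11) and Ppp3cb (-0.46 ± 0.11) and the phosphatase inhibitor gene Ppp1r1a (-0.41 ± 0.11), a relative of Ppp1r1b, were lower as well. Without control replicate 1 the calls of Ppp3cb (-0.47), Arpp19 (-0.42), Arrb2 (-0.42), Kcnj6 (-0.38), Ppp1r1a (-0.34), Prkar1b (-0.30) and Cdk5r1 (0.30) were lost. Without control replicate 2 those of Ppp1r1a (-0.48), Ppp3cb (-0.45), Arrb2 (-0.43), Ppp2ca (-0.39), Prkar1b (-0.37) and Cdk5r1 (0.42) were lost, and Arrb2 was lost without salt replicate 2 (-0.30). The higher genes were Arpp21 and Cdk5r1 (0.36 ± 0.11), the activator of the kinase Cdk5. With IP and input arrays normalized apart the calls of Cdk5r1 (0.06) and Kcnj6 (-0.31) were also lost. The deposited ratios ended that of Cdk5r1 too (0.06). With median scaling Cdk5r1 went to -0.15, and 1 gene of the list passed as higher and 21 as lower (median -0.40). Under that setting 8485 of the 14199 tested probes passed in either direction. The median of all tested probes was then -0.15, with 40.2% above 0.

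Of the 9 other receptor genes, 4 were tested. Adora1, the Gi-coupled adenosine receptor, had IP levels of 9.41 and 9.28 in the salt samples and 9.44 and 9.78 in the control samples, against input levels of 8.61 and 8.39 in the salt samples and 8.80 and 8.51 in the control samples (log2). It was higher in the IP in every sample (0.90 ± 0.13 over all samples, SE, limma adjusted p = 0.00107), and Gpr12, a relative of Gpr6, was lower (-0.70 ± 0.11, adjusted p = 0.00162), where 27.7% of all tested probes passed as higher and 28.8% as lower. Between salt and control none of the 4 passed, the lowest p being those of Gpr3 and Adora1 (-0.27 ± 0.19) in the IP, Adora1 (-0.15 ± 0.19) and Drd1 (-0.16 ± 0.24) in the input, and Gpr3 and Adora1 (-0.11 ± 0.27) in the ratio. Gpr3, another relative of Gpr6, was detected on the 2 salt IP arrays and on no other array, so it entered the tests through the group where it was high and its difference is not read as a result. Drd4, Drd5, Adora2b and Adora3 were undetected on all arrays, like Adora2a and Gpr6, and Drd3 was too dim to be tested.

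Of 17 other phosphodiesterase genes listed, 11 were tested, and over all samples 6 passed as higher and 1 as lower, where 27.7% and 28.8% of all tested probes did (median 0.44, against -0.03 over all tested probes). Of the higher ones Pde9a was detected on IP arrays only, so it entered the test through the fraction where it was high. Over the 10 genes whose probes all 8 arrays detected, 5 passed as higher and 2 as lower (median 0.28). Of all 11291 probes that all 8 arrays detected, 6717 passed in either direction, with a median of -0.07 and 45.1% above 0. The other higher genes were Pde4a (0.52 ± 0.11, SE), Pde4d (0.51 ± 0.11), Pde7b (0.48 ± 0.12), Pde1c (0.48 ± 0.11) and Pde4b (0.44 ± 0.16), with limma adjusted p of 0.00434 to 0.045. Pde4d was lost with median scaling (0.14) and without control replicate 2 (0.47), Pde7b without control replicate 1 (0.43) and Pde1c without control replicate 2 (0.41). Pde4b was lost in 5 of 13 alternatives, among them those without salt replicate 2 (0.22), control replicate 1 (0.53) and control replicate 2 (0.35). Pde6d (-0.87 ± 0.11, adjusted p = 0.000595), which despite its name encodes a carrier of lipid-modified proteins, was the 1 lower gene. With median scaling 4 passed as higher and 3 as lower, with a list median of 0.14. Under that setting 8485 of the 14199 tested probes passed in either direction, and 40.2% were above 0. Between salt and control 0 passed, the lowest p being those of Pde7a (0.32 ± 0.22) and Pde1c (-0.31 ± 0.22) in the IP, Pde2a (-0.25 ± 0.15) and Pde8b (0.28 ± 0.20) in the input, and Pde7a (0.56 ± 0.24) and Pde1c (-0.42 ± 0.23) in the ratio.

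**Figure D4:**
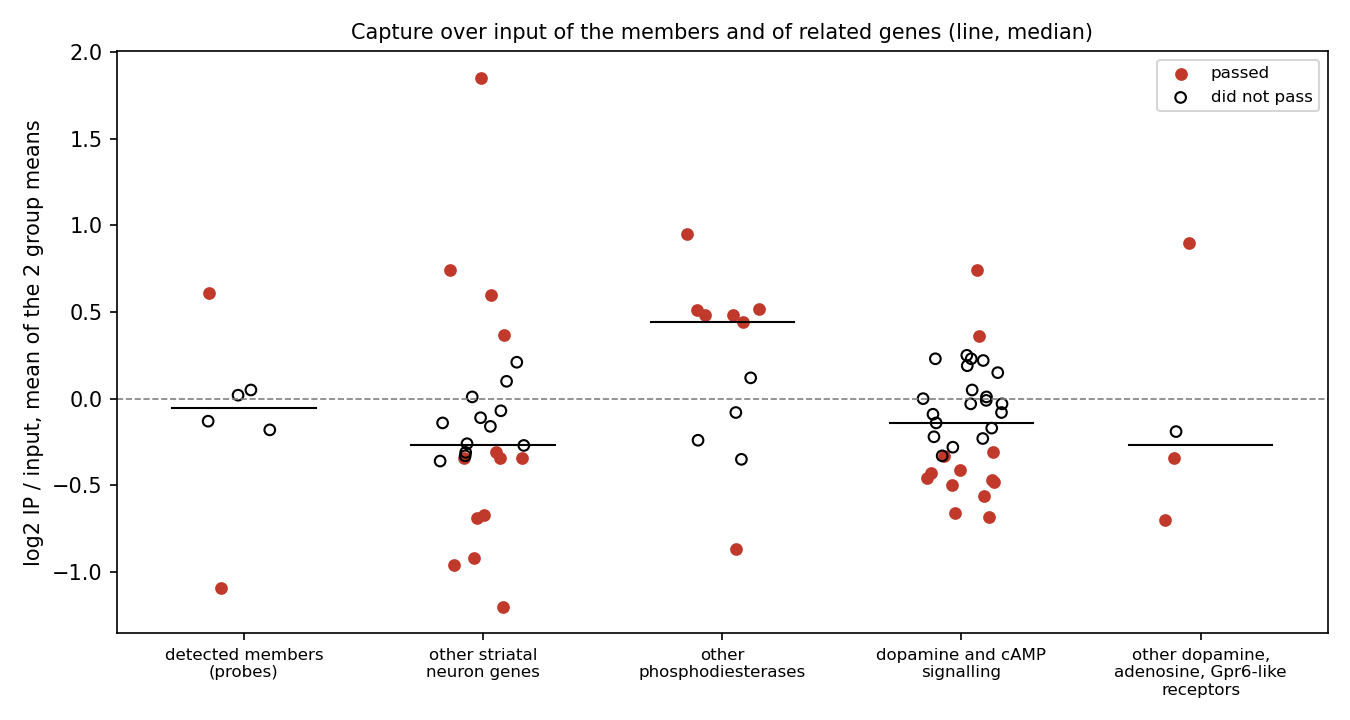
Log2 IP/input ratios over all 4 samples of the 6 tested member probes and of the tested genes of the other striatal, signalling, receptor and phosphodiesterase lists. Filled red points passed at a limma adjusted p under 0.05, open points did not, and lines are list medians. The phosphodiesterase median lies at 0.44 and that of the other striatal genes at -0.27, and the topmost point of each of these lists is a gene that no input array detected.

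Markers of other cells give the setting of the Ppp1r1b values. In the IP, the summed normalized intensity of the 25 tested other striatal genes was 8769 to 8838 in salt and 8254 to 9128 in control samples, and that of the 10 tested cortical and hippocampal markers was 5317 to 5373 in salt and 5266 to 5512 in control samples. Both ranges overlap between the groups, and Neurod6 and Slc17a7 were undetected on all arrays. The 6 tested microglial markers (Csf1r and Itgam were among 5 of 12 undetected on all arrays) summed to 872 to 886 in salt and 999 to 1113 in control IP, and the 12 tested oligodendrocyte markers to 23616 to 24967 in salt and 21604 to 23044 in control IP. A sum follows the brightest probes. By gene, the median salt minus control difference in the IP was -0.08 for the microglial markers, with 2 of 6 above 0. It was 0.11 for the oligodendrocyte markers, with 8 of 12 above 0. Of all tested probes 49.4% were above 0 in the IP. In the input, where ILMN_2954824 was also lower in salt samples, the microglial and oligodendrocyte sums overlapped between the groups. There the 4 tested endothelial markers (7 of 12, Pecam1 and Cdh5 among them, were undetected on all arrays) summed to 979 to 1026 in salt and 891 to 895 in control samples, and the 3 tested blood cell markers (Alas2 was undetected on all arrays) to 1402 to 1531 in salt and 885 to 1370 in control samples. The median input difference by gene was 0.02 for the endothelial markers, with 2 of 4 above 0. For the blood cell markers it was 0.40, with 3 of 3 above 0. Of all tested probes 48.9% were above 0 in the input. Without overlap were also the IP sums of the 4 tested other receptor genes (1191 to 1195 in salt, 1294 to 1363 in control samples). The same held for the input sums of the other phosphodiesterase list and of the dopamine and cAMP list. Of all tested single probes, 30.8% in the IP and 25% in the input did not overlap between the groups. The sums that did not overlap moved with the groups, and their part in the Ppp1r1b values was not tested. Of 23 hypothalamic markers on the array 15 were tested, with IP sums of 6742 to 8865 in salt and 5799 to 7757 in control samples. By gene, 13 of these 15 were higher in salt IP, where 49.4% of all tested probes were (median 0.49, against 0.00 over all tested probes). Of them 1 passed, where 0.134% of all tested probes did. For IP against input over all samples 1 of the 15 passed as higher and 12 as lower (median -0.98). The shares of all tested probes were 27.7% and 28.8%. Of 9 pituitary markers 0 were tested, Prl being undetected on all arrays. Of 13 midbrain dopamine neuron markers 8 were tested, and 4, Pitx3 among them, were undetected on all arrays. The tested ones had a median salt minus control difference of 0.27 in the IP, with 6 of 8 above 0. In the input it was 0.16, with 7 of 8 above 0. The IP median was -0.07 for 13 thalamic, 0.05 for 11 astrocyte and -0.02 for 6 ependymal and choroid markers. Of these genes 0 passed between salt and control.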

How the data were processed

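Per the labels' protocols, an Ovation system amplified the RNA before biotin labelling. The submitters' processing notes name GenomeStudio, with no version. For every probe the authors deposited a linear intensity on each array, together with its detection p-value, per the file headers. The deposited IP/input ratio of each sample equals the quotient of those intensities (largest relative gap 1.6e-09) and was an alternative only. Gene names were brought up to date where a reference table allowed: of 25697 probes, 20736 had a name still in use, 3841 an older one that was replaced, and 1120 a name that was left as it stood.

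Background correction used limma's nec, which takes the background from the detection p-values (offset 16). Quantile normalization over all 8 arrays and a log2 transform followed (limma 3.58.1 in R 4.3.3). A probe entered the tests if 2 or more arrays gave it a detection p below 0.01, which left 14199. IP/input differences (log2) were fitted for the 2 groups, 1 value per sample (2 residual degrees of freedom before moderation), and the levels of all 8 arrays with 4 group means (4 degrees of freedom). Two-sided tests were adjusted over all tested probes by the Benjamini-Hochberg method, with a threshold of 0.05. Errors called SE come from these fits. The fits were tested on simulated data.

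All probes of the 7 genes are named. Of the related lists, genes that passed are named, and otherwise the 2 with the lowest p per comparison of salt with control, each gene by its brightest probe. The members and lists were chosen with earlier results of these data known. Alternatives to the background correction, normalization, filter, variance model, replicate pairing and set of samples were run, and the crossed pairing was chosen after seeing the data.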

Additional observations from a re-analysis of the deposited data

Results flagged for a closer look

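The IP/input ratio of Ppp1r1b (ILMN_2651660) was below 0 in both salt samples and above 0 in both control samples. The salt minus control difference was -0.70 ± 0.23 (SE, limma) and did not pass (adjusted p = 1.00 over all tested probes). From the deposited ratios the difference was -0.33, and over the alternatives it ran from -0.85 to -0.33.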

How the results depend on the processing

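Over the alternatives run, 474 values of the member probes were recomputed: 422 kept their direction and their side of the threshold, 18 lost a call and 34 changed sign, and none became a call. Many of them could not change direction. The filters, the variance model and the replicate block leave an estimate as it is, and so does leaving out a sample of the group not measured. No member probe passed between salt and control under any of them (lowest limma adjusted p 0.259 in the IP, 0.58 in the input, 0.246 in the ratio). Member probes passing for IP against input numbered 3 in salt samples, but 1 with median scaling and 1 when control replicate 1 or 2 was left out. In control samples they numbered 2, and 0 when control replicate 1 or 2 was left out, the lone control sample being assumed to vary like the salt samples. Leaving out 1 sample at a time, salt minus control crossed 0 for Drd2 in the IP (-0.28 to 0.21) and the ratio (-0.44 to 0.16), Pde10a in the IP (-0.26 to 0.13) and the input (-0.10 to 0.19), Rgs9 in the IP (-0.06 to 0.69) and the ratio (-0.10 to 0.48), Pde1b in the IP (-0.15 to 0.00), the input (-0.47 to 0.04) and the ratio (-0.13 to 0.41), Ppp1r1b ILMN_2651660 in the input (-0.17 to 0.17), Drd1 (-0.35 to 0.04) and Rasgrp2 (-0.02 to 0.75) in the input, and Adora1 in the ratio (-0.44 to 0.21). Likewise, the mean IP/input ratio crossed 0 for Drd2 (-0.55 to 0.05) and Pde1b (-0.18 to 0.36) in salt samples, Drd2 (-0.33 to 0.11), Rgs9 (-0.33 to 0.25) and Pde1b (-0.16 to 0.06) in control samples, and Pde1b (-0.12 to 0.16) and Rgs9 (-0.09 to 0.20) over all samples. Without background correction the input value of ILMN_2651660 was 0.00. With IP and input arrays normalized apart the mean ratio changed sign for Drd2 (0.10) and Rgs9 (0.07) in control samples and ILMN_2651660 (0.09) and Drd2 (0.02) over all samples. With the deposited ratios it changed sign for Drd2 (0.02) and Rgs9 (0.02) in control samples and ILMN_2651660 (0.02) over all samples. With median scaling it changed sign for Pde1b in salt samples (-0.09) and Rgs9 (-0.07), Pde1b (-0.16) and Cdk5r1 (-0.15) over all samples. The cause of these changes was not tested. Over all tested probes 19 passed in the IP (1 to 21 under the alternatives), 2 in the input (0 to 7) and 0 in the ratio (0 to 17). The labels give salt and control samples the same replicate numbers and no shared origin, and deviations of same-numbered samples correlated at 0.136 in the IP, -0.229 in the input and 0.009 in the ratio. With the replicate number as a block, 14 probes passed in the IP, 1 in the input (2 with crossed numbers) and 1 in the ratio, and the 1 member call lost was that of ILMN_2651660 in salt samples (-0.48, limma adjusted p = 0.0639).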
